A study of Homo sapiens with 12 samples.

Results

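The genes of the proteasome were followed in Z138, a human mantle cell lymphoma line, after treatment with AU-15330. Members were the entries of the deposited expression table whose symbol begins with PSMA to PSMG followed by a digit, with 1 such symbol not included, and the entry with the highest mean was taken where a symbol had several. This gave 62 symbols from 73 entries, of 20318 entries in the table. Of the 62 symbols, 46 are annotated proteasome genes, 14 are pseudogenes and 2, PSMC3IP and PSME3IP1, share only the prefix. With a filter of at least 1 CPM (a count scaled to library size) in at least 3 libraries, 45 of the 46 proteasome genes were tested. PSMA8, the alpha subunit of the testis, did not pass.

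The proteasome is the protease that degrades proteins tagged with ubiquitin. Its 20S core is a stack of alpha and beta rings, of which PSMB5, PSMB6 and PSMB7 carry the proteolytic sites, and its 19S cap recognises, unfolds and feeds in the substrate. In lymphoid cells, and in other cells under interferon, PSMB8 and PSMB10 replace PSMB5 and PSMB7 in the immunoproteasome, and the 11S activator of PSME1 and PSME2 can bind the core in place of the cap, which changes the peptides offered on MHC class I.

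Z138 cells of wild-type genotype received AU-15330 at 0.5 µM or the solvent DMSO for 8 h or 24 h. AU-15330 is a degrader that recruits the VHL ubiquitin ligase to SMARCA2, SMARCA4 and PBRM1, the ATPases and a targeting subunit of BAF chromatin remodelling complexes, so the proteasome is also part of how the compound works. The values held 3 libraries of AU-15330 at 8 h, 3 of AU-15330 at 24 h, 3 of DMSO at 24 h and 2 of DMSO at 8 h, 11 in all, of 1 cell line. Nothing in the labels says that replicates came from separate cultures, so p-values measure the spread between these libraries, which may be technical. The labelled batch is the same split as time. Comparisons of AU-15330 with DMSO lie within 1 batch, and in comparisons across time the batch and the time cannot be told apart.

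Estimated total counts were 50765418 to 67572111 per library. The cells carried the markers of their label: CCND1 stood at 2463 to 2894 CPM, SOX11 at 76.4 to 197 CPM and MS4A1 at 181 to 611 CPM. The summed level of the 5 B cell markers was 925 to 952 CPM in DMSO and 503 to 552 CPM with AU-15330 at 8 h, and 1230 to 1233 CPM in DMSO and 414 to 439 CPM with AU-15330 at 24 h. Summed markers of T cells (4 of 5 in the table), myeloid cells (2 of 5) and erythroid cells (3 of 4) reached at most 2.12, 0.518 and 0.408 CPM. Of the 3 fibroblast markers in the table, COL1A1 alone exceeded 0.107 CPM, at 10.95 to 16.58 CPM in DMSO and 2.81 to 5.26 CPM with AU-15330 at 8 h and at 19.7 to 21.0 and 1.27 to 3.86 CPM at 24 h. The part of these markers in the results below was not tested.

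Levels are normalised counts read back from the deposited log2 values. Changes are differences of log2(normalised count + 60) with their standard error (SE), on which the change of a low gene is understated. Calls are Benjamini-Hochberg adjusted p-values below 0.05 from limma on the deposited scale, adjusted over all 12721 tested genes. In bulk RNA a change in the number of cells of a kind and a change in RNA per cell cannot be told apart.

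After 8 h of AU-15330 most of the common proteasome had moved up by a small amount and the immunoproteasome had moved down. By limma, 25 of the 45 genes rose, 4 fell and 16 did not pass. Over all tested genes 22.9% rose and 21.4% fell, and among the 7820 genes with a mean of at least 1000 normalised counts these shares were 29.4% and 20.5%. The median log2 change of the 45 genes was 0.16, beside 0.02 for all tested genes. After 24 h, 16 of the 45 genes rose and 10 fell, beside 24.7% and 26.2% of all tested genes and 26.2% and 28.2% of the 7820, with a median of 0.06 beside 0.01. The higher genes were 61.5% of those called at 24 h. On log2(CPM + 1) they were 21 and the lower ones 8, or 72.4%, and on that scale 3883 of all 12721 tested genes were higher and 2869 lower.

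The 14 genes that rose at both times were 8 of the 19S cap (PSMC3, PSMC4, PSMC6, PSMD2, PSMD3, PSMD8, PSMD11 and PSMD12), 4 of the 20S core (PSMA1, PSMB4, PSMB5 and PSMB6) and the assembly factors PSMD9 and PSMD10. Those that fell at both times were 4: PSMB10, PSME1 and PSME2 of the immunoproteasome set, and PSME4. PSMG1 and PSME3 were the 2 genes that passed in opposite directions, higher at 8 h and lower at 24 h. The remaining calls were made at 1 time: 9 genes higher at 8 h, 2 higher at 24 h (PSMB7 and PSMG3) and 4 lower at 24 h (PSMA5, PSMA6, PSMA7 and PSMB8). A call at 1 time does not show that the effects differ between times, and the test of that difference is given further on.

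**Figure D1:**
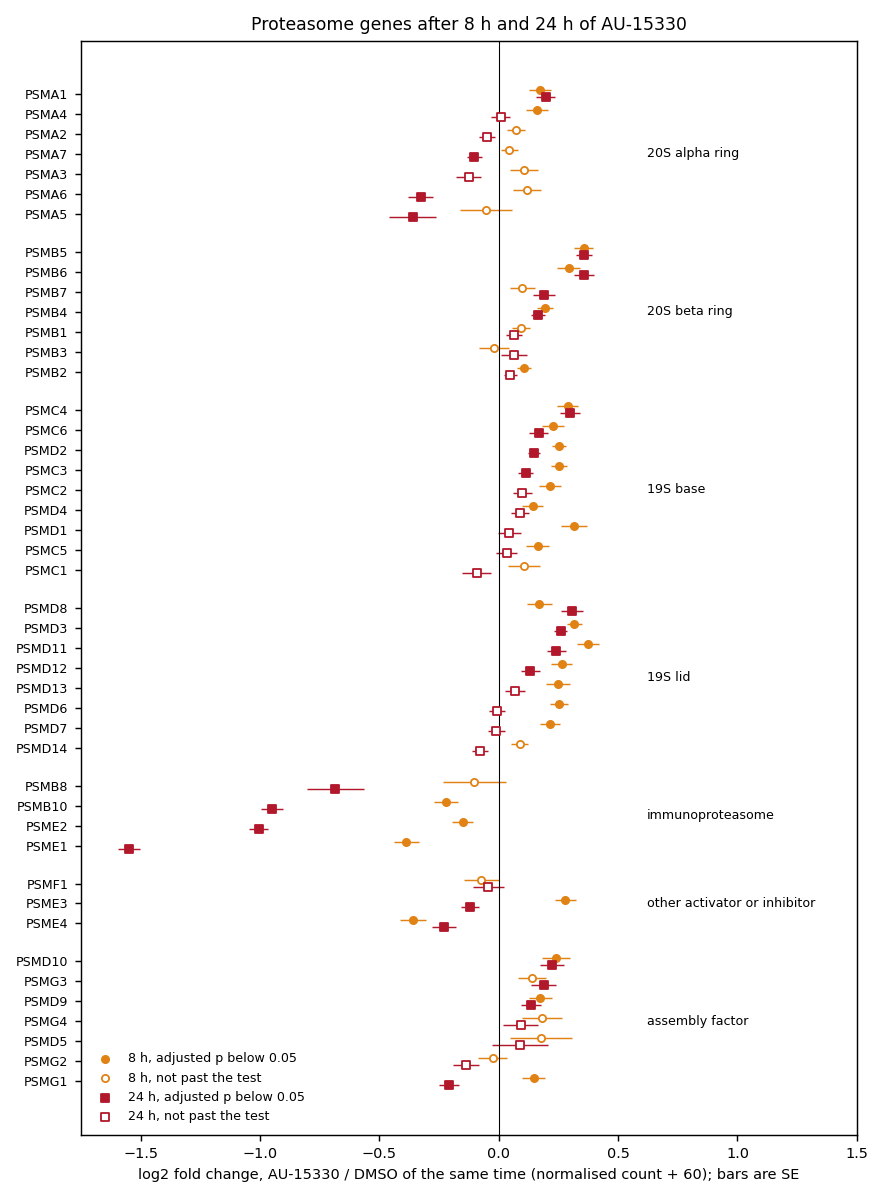
Log2 change (x axis, AU-15330 against DMSO of the same time) of the 45 tested proteasome genes, in rows grouped by their place in the complex; circles are 8 h, squares 24 h, bars SE, and filled symbols have a limma adjusted p below 0.05. The 19S genes lie to the right of 0 at 8 h, and the 4 immunoproteasome genes lie between -1.55 and -0.68 at 24 h.

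The 20S core consists of the beta ring, with the proteolytic subunits, and the alpha ring, which gates entry. By limma 4 of the 7 beta genes rose and none fell at each time (unadjusted falls 0), and of the 7 tested alpha genes 2 rose at 8 h, a share of 28.6% beside 29.4% of the 7820 more abundant genes, and 1 rose and 3 fell at 24 h. Over the 14 core genes at 24 h that is 5 higher and 3 lower, and 7 higher and 2 lower on log2(CPM + 1). Beta genes that rose were 57.1% at each time, beside 22.9% of all tested genes at 8 h and 24.7% at 24 h. Alpha genes that fell at 24 h were 42.9%, beside 26.2% of all tested genes. In CPM, the 7 beta genes summed to 1309 ± 7.36 (SD, n = 2) in DMSO and 1443 ± 43.3 (SD, n = 3) with AU-15330 at 8 h. At 24 h the beta sums were 1234 ± 15.0 and 1426 ± 13.5 (SD, n = 3 each), 115.5% of DMSO. The 7 tested alpha genes summed to 1579 ± 24.97 (SD, n = 2) and 1675 ± 71.8 (SD, n = 3) at 8 h and to 1588 ± 34.3 and 1538 ± 34.8 (SD, n = 3 each) at 24 h, 96.9% of DMSO. Sums are descriptions and carry no test. They take only the entry with the highest mean of each symbol, which for PSMB3 held 87.7% of the level over its entries.

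PSMB5 (ENSG00000100804.19, chr14:23016543-23035230 on GRCh38), the subunit with the chymotrypsin-like site that bortezomib binds, had 5803 and 5458 normalised counts in DMSO at 8 h and 7217, 7191 and 7245 with AU-15330. The 24 h levels were 5438, 5275 and 5440 in DMSO and 6994, 6850 and 6898 with AU-15330. At both times every treated library lay above every control. The log2 change was 0.36 (SE 0.04) at 8 h, with a limma adjusted p of 2.15e-05, and 0.36 (SE 0.03) at 24 h, with an adjusted p of 5.76e-06, so the rise was of 27.9% and 28.1%.

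PSMB6, which carries the caspase-like site, rose by 22.5% at 8 h and 28.0% at 24 h (limma adjusted p 0.00044 and 3.55e-05). PSMB7, with the trypsin-like site, had a log2 change of 0.10 (SE 0.05, adjusted p 0.157 by limma) at 8 h and rose by 0.19 (SE 0.05, adjusted p 0.00617) at 24 h. Among the beta subunits without a proteolytic site, PSMB4 rose at both times by 0.19 and 0.17. PSMB2 rose only slightly at 8 h, from 12156 and 12128 in DMSO to 12968, 13072 and 13156, a log2 change of 0.11 (SE 0.03, limma adjusted p 0.0129). That call was lost without DMSO 8 h library 2 (adjusted p 0.0529) and with quantile normalisation (0.178). At 24 h PSMB2 had 12296, 12338 and 12388 in DMSO and 12600, 12807 and 12890 with AU-15330, a change of 0.05 (SE 0.03, limma adjusted p 0.146). PSMB1 and PSMB3 passed at neither time.

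Of the alpha ring, PSMA1 had 12081 and 13030 normalised counts in DMSO at 8 h against 14527, 13571 and 14423 with AU-15330, and 12220, 11928 and 12755 in DMSO at 24 h against 14370, 13965 and 13978. The groups did not overlap at either time. PSMA1 rose by 0.17 (SE 0.05, limma adjusted p 0.00939) at 8 h and by 0.20 (SE 0.04, adjusted p 0.00194) at 24 h. The 8 h call was lost without DMSO 8 h library 1 (adjusted p 0.107).

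PSMA6 (ENSG00000100902.11, chr14:35278633-35317493) went the other way at 24 h. Its levels at 8 h were 15952 and 15923 in DMSO and 18031, 15880 and 18122 with AU-15330, and these groups overlapped. At 24 h they were 17571, 17187 and 17478 in DMSO and 13974, 13115 and 14534 with AU-15330, with no overlap. PSMA6 did not pass at 8 h (log2 change 0.12, SE 0.06, limma adjusted p 0.117) and fell by 0.33 (SE 0.05, adjusted p 0.000301) at 24 h. PSMA5 fell by 0.36 (SE 0.10, limma adjusted p 0.0103) and PSMA7 by 0.10 (SE 0.03, adjusted p 0.0181) at 24 h. The fall of PSMA7 did not pass on log2(CPM + 1), with an adjusted p of 0.229, nor without DMSO 24 h library 3 (0.0738) or AU-15330 24 h library 3 (0.0631). PSMA2 and PSMA3 passed at neither time, and PSMA4 only at 8 h, with a log2 change of 0.16, a call lost without DMSO 8 h library 1 (adjusted p 0.081).

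Nearly the whole 19S cap, which binds and unfolds tagged proteins, was higher at 8 h. All 17 of its tested genes had a positive log2 change, 15 of them passed, and the median change was 0.25. The 2 that did not pass were PSMC1, an ATPase of the base (0.11, SE 0.07, limma adjusted p 0.222), and PSMD14, the deubiquitinase of the lid (0.09, SE 0.04, adjusted p 0.0822). At 24 h 8 of the 17 genes rose, none fell and the median was 0.10. As shares, rises were 88.2% at 8 h and 47.1% at 24 h, beside 22.9% and 24.7% of all tested genes. Among the 7820 more abundant genes 29.4% and 26.2% rose. Falls at 24 h were 26.2% of all tested genes. For the falls at 24 h, 1 of the 17 had an unadjusted p below 0.05. Summed in CPM, the 17 genes stood at 3386 ± 12.7 (SD, n = 2) in DMSO and 3950 ± 43.6 (SD, n = 3) with AU-15330 at 8 h, or 116.7%, and at 3180 ± 35.1 and 3567 ± 18.2 (SD, n = 3 each) at 24 h, or 112.2%. For PSMC4 the entry in these sums held 50% of the level over its entries.

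The base holds the ATPase ring and the large scaffold subunits. PSMD2, the scaffold that binds ubiquitin-like domains, had 22197 and 22568 normalised counts in DMSO and 26728, 26918 and 26316 with AU-15330 at 8 h. Its 24 h levels were 20801, 20954 and 20701 in DMSO and 22705, 23510 and 23038 with AU-15330. The treated libraries were the higher ones at both times, and PSMD2 rose by 0.25 (SE 0.03, limma adjusted p 3.68e-05) and by 0.15 (SE 0.03, adjusted p 0.000609).

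PSMC4, an ATPase of the ring, was listed in 2 entries with the same values, each holding 50% of the summed level. In 1 entry it had 3373 and 3342 in DMSO and 4162, 4081 and 4096 with AU-15330 at 8 h, and 3223, 2965 and 3136 against 3767, 3878 and 3859 at 24 h. Its rise was 0.29 (SE 0.05) at 8 h and 0.30 (SE 0.04) at 24 h, with limma adjusted p-values of 0.000311 and 9.11e-05, and the groups were apart at both times.

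PSMD1, the other large scaffold of the base, was different at 24 h. It rose at 8 h, from 15185 and 14558 to 18702, 18454 and 18386 (log2 change 0.32, SE 0.05, limma adjusted p 0.000638). At 24 h its levels of 13750, 14456 and 12844 in DMSO and 14208, 13283 and 14851 with AU-15330 overlapped (0.04, SE 0.05, adjusted p 0.478). PSMC2, PSMC5 and PSMD4, the last a ubiquitin receptor, likewise passed at 8 h alone. Of these calls, that of PSMC5 was lost without DMSO 8 h library 2 (adjusted p 0.152), and that of PSMD4 without DMSO 8 h library 2 (0.193) or AU-15330 8 h library 1 (0.0618).

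In the lid, PSMD3 (ENSG00000108344.15, chr17:39980797-39997960), a scaffold subunit, had 20103 and 19040 normalised counts in DMSO and 24220, 24721 and 24236 with AU-15330 at 8 h. The levels at 24 h were 19126, 18811 and 19131 in DMSO and 22654, 22818 and 22857 with AU-15330. PSMD3 rose by 0.32 (SE 0.03, limma adjusted p 1.2e-05) and 0.26 (SE 0.03, adjusted p 1.62e-05), with no overlap of the groups. PSMD11 had the highest change of the 45 genes at 8 h, 0.37 (SE 0.05), and stood at 0.24 (SE 0.04) at 24 h (limma adjusted p 5.12e-05 and 0.000449).

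PSMD6, a further scaffold subunit of the lid, rose at 8 h from 5715 and 5831 to 7012, 6757 and 6893 (0.25, SE 0.04, limma adjusted p 0.000241). Its 24 h groups overlapped, with 5810, 5605 and 5821 in DMSO and 5822, 5645 and 5672 with AU-15330 (-0.01, SE 0.03, adjusted p 0.861). PSMD7, the partner of PSMD14 in the lid, had a log2 change of 0.22 at 8 h and -0.01 at 24 h. PSMD8 rose at both times, by 0.17 and 0.31, and its 8 h call was lost without DMSO 8 h library 2 (adjusted p 0.265), AU-15330 8 h library 1 (0.0663) or AU-15330 8 h library 3 (0.061).

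The 4 immunoproteasome genes were lower with AU-15330. By limma, 3 of 4 fell at 8 h and all 4 fell at 24 h, beside 21.4% and 26.2% of all tested genes. Among the 7820 more abundant genes 20.5% and 28.2% fell. The median log2 change of the 4 genes was -0.19 at 8 h and -0.98 at 24 h, while the 41 other proteasome genes had medians of 0.17 and 0.07. Summed over the 4 genes, the level was 298 ± 3.56 CPM (SD, n = 2) in DMSO and 247 ± 7.46 (SD, n = 3) with AU-15330 at 8 h, 83.1% of DMSO. At 24 h it was 309 ± 5.72 and 141 ± 2.65 (SD, n = 3 each), 45.6% of DMSO. These sums take only the entry with the highest mean of each symbol. They hold 17.1% of the level of PSMB8 summed over its entries, and 50% of that of PSME1 and of PSME2.

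PSME1 (ENSG00000092010.15, chr14:24136158-24138967, plus strand), the alpha subunit of the 11S activator, had 7275 and 7815 normalised counts in DMSO at 8 h and 5703, 5553 and 6010 with AU-15330. At 24 h its levels were 7739, 8128 and 8253 in DMSO and 2689, 2822 and 2617 with AU-15330. No treated library reached a control at either time. PSME1 fell by 0.39 (SE 0.05, limma adjusted p 9.84e-05) at 8 h and by 1.55 (SE 0.05, adjusted p 8.42e-10) at 24 h (-23.5% and -65.8% in fold terms).

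PSME2 (ENSG00000100911.16, chr14:24143362-24147570, minus strand), the beta subunit of the same activator, lies beside PSME1 on chromosome 14. It had 5639 and 5342 in DMSO and 5024, 4807 and 4978 with AU-15330 at 8 h, and 5843, 5626 and 5667 against 2810, 2754 and 2884 at 24 h. The 8 h groups were close but apart, and the 24 h groups were far apart. PSME2 fell by 0.15 (SE 0.04, limma adjusted p 0.0128) at 8 h and by 1.01 (SE 0.04, adjusted p 4.87e-09) at 24 h. The 8 h call was lost without DMSO 8 h library 1 (adjusted p 0.116) and when only the 8 h groups were fitted (0.0509). PSME1 and PSME2 were each listed in 2 entries of identical values, so that each level printed here is 50% of the sum.

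PSMB10 (ENSG00000205220.12, chr16:67934502-67937087, minus strand) is the inducible counterpart of PSMB7. It had 3333 and 3278 in DMSO and 2914, 2770 and 2807 with AU-15330 at 8 h. Levels at 24 h were 3353, 3227 and 3464 in DMSO and 1689, 1660 and 1762 with AU-15330. The groups did not overlap, and PSMB10 fell by 0.22 (SE 0.05, limma adjusted p 0.00327) and by 0.95 (SE 0.05, adjusted p 2.38e-08) (-14.2% and -48.2% in fold terms).

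PSMB8 (ENSG00000204264.12, chr6:32840717-32844703, minus strand), the inducible counterpart of PSMB5, lies in the MHC region and was listed in 8 entries. The entry used here held 17.1% of their summed level. It had 1365 and 1263 in DMSO and 1373, 1136 and 1162 with AU-15330 at 8 h, and 1747, 1392 and 1698 against 957, 845 and 1149 at 24 h. The 8 h groups overlapped, with a log2 change of -0.10 (SE 0.13, limma adjusted p 0.562), and PSMB8 fell by 0.68 (SE 0.12, adjusted p 0.000504) at 24 h.

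Summing the 8 entries of PSMB8 gave 7822 and 7262 in DMSO and 7295, 6727 and 7989 with AU-15330 at 8 h. At 24 h the sums were 9494, 8814 and 9602 in DMSO and 5787, 5609 and 5985 with AU-15330. The summed PSMB8 changed by -0.04 (SE 0.07, limma adjusted p 0.6485) at 8 h and by -0.68 (SE 0.06, adjusted p 2.039e-06) at 24 h, so the direction was that of the single entry with a smaller error. In DMSO the summed level was higher at 24 h than at 8 h by 0.30 (SE 0.07, adjusted p 0.0133), and the single entry did not pass there (0.28, SE 0.13, adjusted p 0.187).

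**Figure D2:**
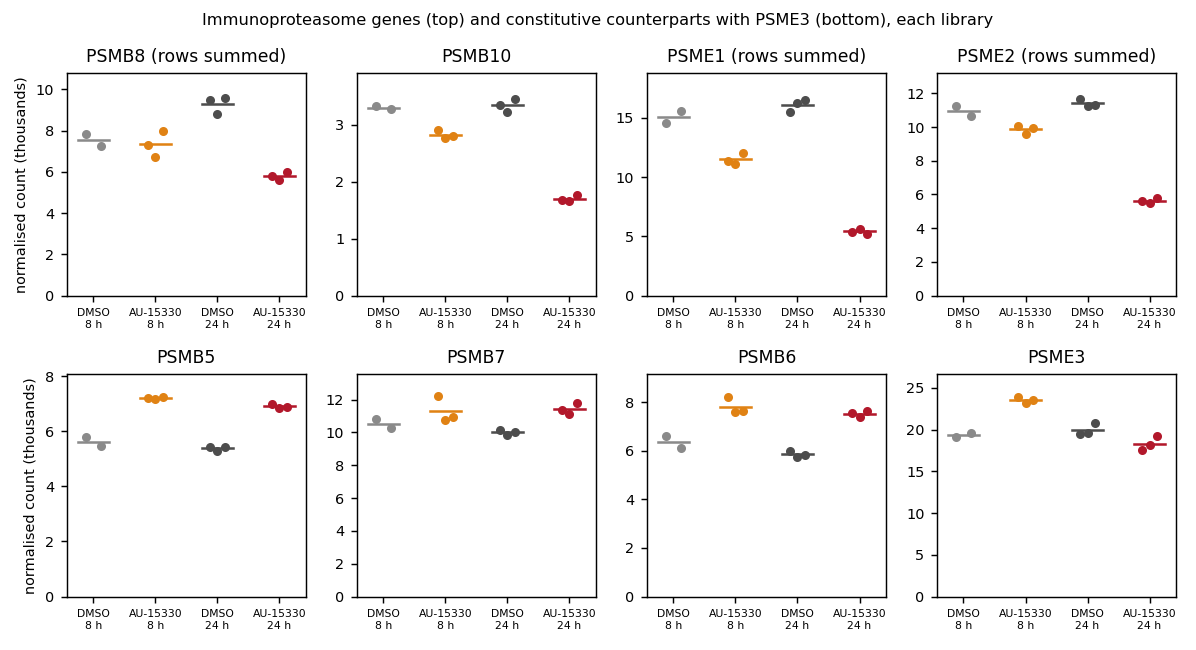
Normalised counts divided by 1000 (y axis, from 0) of 8 genes in each of the 11 libraries; points are libraries, lines are group means, and the top row is the immunoproteasome set with entries of a symbol summed where there are several. In the top row the lowest group is AU-15330 at 24 h in each panel, and in PSMB5, PSMB6 and PSMB7 below it lies above DMSO at 24 h.

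Set against PSMB5, PSMB7 and PSME3 within the same library, PSMB8, PSMB10 and PSME1 lost ground. These ratios are of normalised counts per kilobase of transcript, with the entries of a symbol summed, and are given as a description with no test. The denominators also changed with AU-15330. At 8 h PSMB5 rose by 27.9% and PSME3 by 21.3%, PSMB7 did not pass, and summed PSMB8 had a log2 change of -0.04. At 24 h PSMB5 and PSMB7 rose and PSME3 fell. PSMB8 over PSMB5 was 1.20 ± 0.01 (SD, n = 2) in DMSO and 0.912 ± 0.08 (SD, n = 3) with AU-15330 at 8 h. At 24 h PSMB8 over PSMB5 was 1.55 ± 0.04 in DMSO and 0.752 ± 0.02 with AU-15330 (SD, n = 3 each), so that with summed entries the order of these genes was reversed. The order depends on the summing: the single PSMB8 entry averaged 1139 normalised counts per kilobase over all libraries, against 6293 for PSMB5.

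PSMB10 over PSMB7 was 0.253 ± 0.007 (SD, n = 2) and 0.202 ± 0.009 (SD, n = 3) at 8 h, then 0.269 ± 0.008 and 0.120 ± 0.0005 (SD, n = 3 each) at 24 h. PSME1 over PSME3, which forms the nuclear form of the 11S activator, was 2.35 ± 0.08 (SD, n = 2) and 1.48 ± 0.06 (SD, n = 3) at 8 h and 2.44 ± 0.06 and 0.895 ± 0.06 (SD, n = 3 each) at 24 h. PSME1 over PSME2, subunits of 1 ring, went from 1.12 ± 0.06 in DMSO to 0.769 ± 0.05 with AU-15330 at 24 h (SD, n = 3 each). All 3 treated libraries lay below all 3 controls in each of these 24 h ratios.

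**Figure D3:**
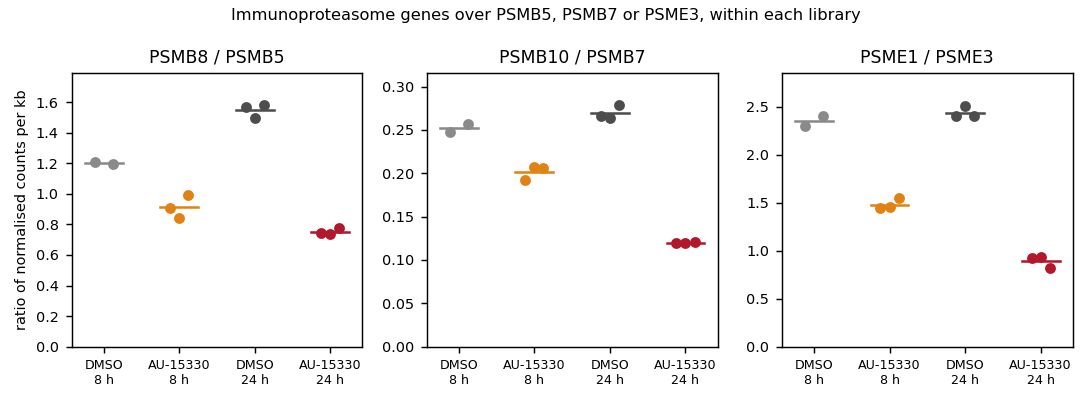
Ratios of normalised counts per kilobase (y axis, from 0) within each library, PSMB8 over PSMB5, PSMB10 over PSMB7 and PSME1 over PSME3; points are libraries and lines are group means. In all 3 panels the group mean is highest in DMSO at 24 h and lowest in AU-15330 at 24 h, with AU-15330 at 8 h below both DMSO groups.

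The promoters of these 4 genes share a sequence element. Sequence was not used to choose the members, but these genes were already known to respond to interferon. A match to an interferon element is therefore no independent support for the grouping. The windows of 250 bases before to 50 bases after each gene start, from RefSeq on GRCh38.p14, held 39 of the 45 tested genes. PSMA7, PSMB1, PSMB6, PSMB7, PSMD4 and PSMG3 had no entry. The core of the interferon-stimulated response element, GAAANNGAAA on either strand, which interferon regulatory factors such as IRF1 bind, was in 3.57% of all 35116 windows and in 7 of the 39: all 4 immunoproteasome genes, PSMA4, PSMB4 and PSMG4. The exact form GAAAGCGAAA, contained in that pattern, was read from the windows of those 4 immunoproteasome genes. Its presence in these 4 genes was therefore fixed in advance and is no separate support. It was in 35 of the 35116 windows (0.0997%) and in 5 of the 39: the same 4 genes and PSMG4. Shares of all windows are per window, but a gene of the 39 was counted if any of its windows matched. The shares are therefore unlike measures, and a gene with several windows can match more easily. A match describes the letters in a window and does not show that a factor binds.

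The 4 windows with the shared element are printed 5′ to 3′ on the strand of the gene, with the matched bases in capitals. PSMB5, the constitutive counterpart of PSMB8, is shown for comparison and has no match. A PSMB8 window was printed only if it held a match, and for PSMB5 the first window was printed. The coordinates are chr6:32843998-32844297 (minus) for PSMB8, chr16:67936801-67937100 (minus) for PSMB10, chr14:24135944-24136243 (plus) for PSME1, chr14:24146561-24146860 (minus) for PSME2 and chr14:23035171-23035470 (minus) for PSMB5.
PSMB8: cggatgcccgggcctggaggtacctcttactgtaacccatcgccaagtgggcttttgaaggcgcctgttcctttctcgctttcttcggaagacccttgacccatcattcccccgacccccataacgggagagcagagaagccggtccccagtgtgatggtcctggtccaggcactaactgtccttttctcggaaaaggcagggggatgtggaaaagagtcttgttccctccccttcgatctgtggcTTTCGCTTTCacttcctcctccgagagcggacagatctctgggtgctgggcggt
PSMB10: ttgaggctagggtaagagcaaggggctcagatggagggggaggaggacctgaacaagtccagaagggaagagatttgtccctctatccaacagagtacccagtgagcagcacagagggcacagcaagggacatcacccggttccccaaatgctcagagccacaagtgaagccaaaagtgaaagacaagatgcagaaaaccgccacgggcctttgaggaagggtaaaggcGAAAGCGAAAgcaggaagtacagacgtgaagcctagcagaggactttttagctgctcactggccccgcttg
PSME1: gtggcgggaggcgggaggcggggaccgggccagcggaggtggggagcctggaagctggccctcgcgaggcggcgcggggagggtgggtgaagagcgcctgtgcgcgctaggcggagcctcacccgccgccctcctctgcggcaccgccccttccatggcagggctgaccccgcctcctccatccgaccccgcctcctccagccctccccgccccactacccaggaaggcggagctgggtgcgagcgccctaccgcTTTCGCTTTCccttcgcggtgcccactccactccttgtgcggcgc
PSME2: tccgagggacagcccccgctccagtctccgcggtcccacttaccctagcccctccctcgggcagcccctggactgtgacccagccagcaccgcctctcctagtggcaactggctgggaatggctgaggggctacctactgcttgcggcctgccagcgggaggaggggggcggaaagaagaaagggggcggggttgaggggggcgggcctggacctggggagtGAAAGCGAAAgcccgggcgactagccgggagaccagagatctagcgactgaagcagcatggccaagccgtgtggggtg
PSMB5: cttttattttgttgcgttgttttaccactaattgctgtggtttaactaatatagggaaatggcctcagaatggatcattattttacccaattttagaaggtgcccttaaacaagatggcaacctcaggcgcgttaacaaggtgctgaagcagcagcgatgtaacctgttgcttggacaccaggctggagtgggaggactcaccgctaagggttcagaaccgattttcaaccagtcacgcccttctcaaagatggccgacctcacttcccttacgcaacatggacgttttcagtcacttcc
The element begins 4 bases before the start in PSMB8, 21 before in PSMB10, 28 before in PSME2 and 5 bases past the start in PSME1. It reads GAAAGCGAAA on the gene's strand in PSMB10 and PSME2, and TTTCGCTTTC, its reverse complement, in PSMB8 and PSME1.

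PSMG4, an assembly chaperone of the alpha ring, carries the same letters and passed at neither time. Its log2 change was 0.18 (SE 0.08, limma adjusted p 0.101) at 8 h and 0.09 (SE 0.07, adjusted p 0.323) at 24 h. PSMA4 and PSMB4, carry the looser pattern: PSMA4 had changes of 0.16 and 0.01, and PSMB4 rose by 0.19 and 0.17. For other elements searched on both strands, shares are again per window for all windows and per gene for the 39. The antioxidant response core TGACNNNGC was in 13.3% of all windows and in 14 of the 39 (35.9%), 2 of them immunoproteasome genes. CCAAT, the box bound by NF-Y, was in 34.6% of all windows and in 18 of the 39 (46.2%), and in 0 of the 4 immunoproteasome genes. TTCNNNGAA, the pattern bound by STAT factors, was in 7.66% of all windows and in 7 of the 39 (17.9%).

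The known regulators of this set were read from a list of 9 genes for immunoproteasome control. At both times 5 of the 9 fell (55.6%) and 2 rose (22.2%). Of all tested genes 21.4% fell and 22.9% rose at 8 h, and 26.2% fell and 24.7% rose at 24 h. IRF1, the factor best known for driving these genes, had 4140 and 4123 normalised counts in DMSO and 1170, 1285 and 1309 with AU-15330 at 8 h, and 4074, 4096 and 4188 against 1034, 1152 and 1150 at 24 h. IRF1 had a log2 change of -1.67 (SE 0.06, limma adjusted p 4.78e-09) at 8 h and -1.84 (SE 0.06, adjusted p 3.74e-10) at 24 h, with every treated library below every control.

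The effect on IRF1 did not differ between times past the threshold (-0.16, SE 0.09, limma adjusted p 0.281). NLRC5, the transactivator of MHC class I genes, had changes of -1.42 (SE 0.18) and -1.76 (SE 0.16), STAT2 of -1.01 (SE 0.09) and -0.49 (SE 0.08), and the kinase gene JAK1 of -0.58 (SE 0.06) and -0.70 (SE 0.05), with limma adjusted p-values of at most 0.000307. The smallest p-values in the list chose these 4 names.

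Activators outside the immunoproteasome set each went their own way. PSME3 (ENSG00000131467.11, chr17:42824385-42843758) had 19136 and 19628 normalised counts in DMSO and 23899, 23149 and 23517 with AU-15330 at 8 h. At 24 h it had 19461, 19617 and 20731 in DMSO and 17546, 18181 and 19272 with AU-15330. PSME3 rose by 0.28 (SE 0.04, limma adjusted p 0.00033) at 8 h and fell by 0.12 (SE 0.04, adjusted p 0.0226) at 24 h. The 24 h fall of PSME3 did not pass on log2(CPM + 1), with an adjusted p of 0.16, nor without DMSO 24 h library 3 (0.0971), AU-15330 24 h library 1 (0.0915) or AU-15330 24 h library 2 (0.0651).

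PSME4 encodes PA200, a large single-chain activator found in the nucleus. It had 6297 and 6340 in DMSO and 4919, 5107 and 4724 with AU-15330 at 8 h, and 6419, 6792 and 6346 against 5244, 5559 and 5867 at 24 h. PSME4 fell by 0.36 (SE 0.05, limma adjusted p 0.000282) and by 0.23 (SE 0.05, adjusted p 0.00195), with no overlap. PSMF1, an inhibitor that binds the end of the core, passed at neither time, with changes of -0.07 (SE 0.07) and -0.04 (SE 0.06).

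Of the 7 assembly factors, 3 rose at each time (42.9%) and 1 fell at 24 h (14.3%). Over all tested genes 22.9% rose at 8 h, and 24.7% rose and 26.2% fell at 24 h. PSMD10, or gankyrin, a chaperone of the 19S base, had 2451 and 2538 normalised counts in DMSO and 3064, 2867 and 2939 with AU-15330 at 8 h. At 24 h it had 2268, 2075 and 2071 in DMSO and 2570, 2549 and 2397 with AU-15330. The groups were apart, and PSMD10 rose by 0.24 (SE 0.06, limma adjusted p 0.00498) and by 0.22 (SE 0.05, adjusted p 0.00436). PSMD9, also a base chaperone, rose by 0.17 and 0.14. The 8 h call of PSMD9 was lost without DMSO 8 h library 2 (adjusted p 0.0694), and its 24 h call without DMSO 24 h library 1 (0.0836), DMSO 24 h library 2 (0.0523) or AU-15330 24 h library 1 (0.0891).

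PSMG1 pairs with PSMG2 to build the alpha ring. It had 3629 and 3863 in DMSO and 4241, 4020 and 4188 with AU-15330 at 8 h, and 3769, 3687 and 3588 against 3234, 3158 and 3152 at 24 h. PSMG1 rose by 0.15 (SE 0.05, limma adjusted p 0.0229) at 8 h and fell by 0.21 (SE 0.04, adjusted p 0.00176) at 24 h. The rise of PSMG1 was lost without DMSO 8 h library 1 (adjusted p 0.18), AU-15330 8 h library 1 (0.0676) or AU-15330 8 h library 3 (0.0575). PSMG2 had changes of -0.03 (SE 0.06) and -0.14 (SE 0.05) and passed at neither time, and PSMG3, of the second chaperone pair, rose at 24 h by 0.19 (SE 0.05, limma adjusted p 0.0108). PSMD5 and PSMG4 passed at neither time.

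The effect of AU-15330 differed between the times for 11 of the 45 genes, each lower at 24 h than at 8 h, beside 11% of all tested genes called lower and 7.54% called higher (14.7% and 6.48% of the 7820). None was higher, also at an unadjusted p below 0.05 by limma, and 1 was higher without DMSO 8 h library 2. On log2(CPM + 1) the lower ones were 7, where 1269 of all tested genes were higher and 886 lower. The 4 immunoproteasome genes were among the 11: PSME1 with a change of -1.16 (SE 0.07, limma adjusted p 7.18e-06), PSME2 with -0.85 (SE 0.06, adjusted p 1.38e-05), PSMB10 with -0.73 (SE 0.07, adjusted p 8.85e-05) and PSMB8 with -0.58 (SE 0.18, adjusted p 0.0401). The call of the single PSMB8 entry was lost in 8 of the 11 fits that left out 1 library, with adjusted p-values up to 0.1294 (without DMSO 8 h library 2), and the summed entries gave -0.64 (SE 0.09, adjusted p 0.0007596).

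Outside that set the 7 genes were PSMA6 (-0.45, SE 0.08, limma adjusted p 0.00305), PSME3 (-0.40, SE 0.06, adjusted p 0.00108), PSMG1 (-0.35, SE 0.06, adjusted p 0.00331), PSMD1 (-0.27), PSMD6 (-0.26), PSMD7 (-0.23) and PSMD14 (-0.17). For PSMD6 the adjusted p was 0.00516. PSMD1, PSMD7 and PSMD14 had limma adjusted p-values of 0.0242, 0.0167 and 0.0423. That of PSMD1 was lost without DMSO 8 h library 2 (adjusted p 0.091), DMSO 24 h library 1 (0.0502) or AU-15330 24 h library 2 (0.0517). That of PSMD7 was lost without DMSO 8 h library 1 (0.0531), and that of PSMD14 in 9 of the 11 fits that left out 1 library, with an adjusted p up to 0.13 (without DMSO 8 h library 1). Of these 4 genes of the 19S cap, PSMD6 alone passed with quantile normalisation (adjusted p 0.0436 by limma) and on log2(CPM + 1) (0.0263) and log2(CPM + 5) (0.0247). With quantile normalisation the adjusted p was 0.0607 for PSMD1, 0.12 for PSMD7 and 0.565 for PSMD14.

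**Figure D4:**
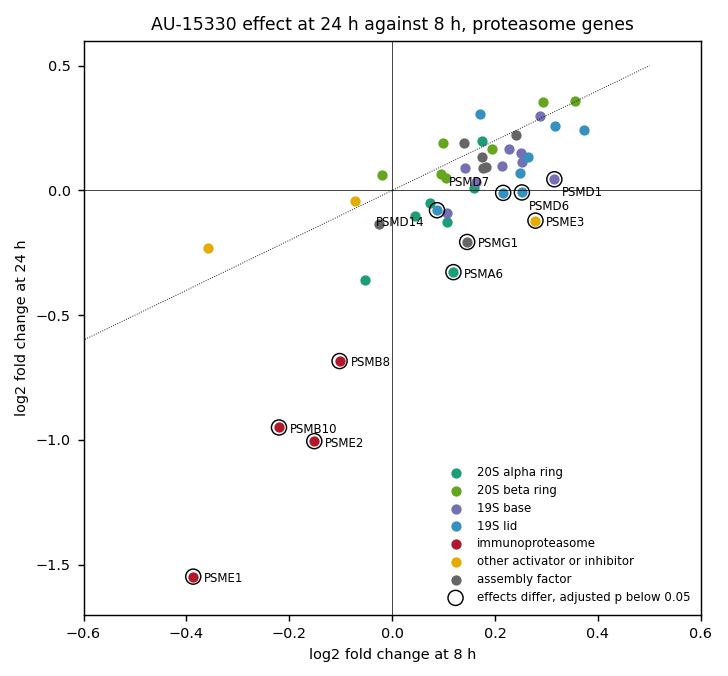
Log2 change at 24 h (y axis) against 8 h (x axis) for the 45 tested proteasome genes, coloured by their place in the complex; rings mark the 11 genes whose effects differed between times by limma, and the dotted line marks equal changes. The ringed genes all lie below the line, and PSME1 is the lowest at -0.39 and -1.55.

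Few of these genes differed between the times in DMSO. Between 8 h and 24 h in DMSO 4 of the 45 fell, beside 3.56% of all tested genes and 4.4% of the 7820: PSMD10 (-0.22), PSMD9 (-0.20), PSMC6 (-0.17) and PSMD2 (-0.10), with limma adjusted p-values of 0.0286 to 0.0453. In fits that left out 1 DMSO library, between 0 and 1 gene fell. None rose in the fit on all 11 libraries by limma, beside 6.56% of all tested genes and 7.81% of the 7820, and 2 had an unadjusted p below 0.05. With AU-15330, 25 of the 45 genes were lower at 24 h than at 8 h, beside 21.1% of all tested genes and 28.4% of the 7820. By limma, 1 gene, PSME4 (0.17, SE 0.05, adjusted p 0.0159), was higher, beside 18.3% and 17.1%, and none was without AU-15330 8 h library 3 or AU-15330 24 h library 3.

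Those 25 genes included 13 of the 17 of the 19S cap, with a median log2 change of -0.21, and 5 of the 14 of the 20S core, with a median of -0.07. With quantile normalisation 2 of the 14 core genes were lower, and on the deposited scale their median went from -0.05 to -0.0051. Both comparisons across time use libraries of the treatment comparisons, and time and labelled batch cannot be told apart in them. In the DMSO libraries the set median was -0.03.

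Levels between genes can be compared per kilobase only. In DMSO at 24 h, the median normalised count per kilobase was 14413 over the 7 alpha genes, 10208 over the 7 beta genes, 4376 over the 9 base genes, 6551 over the 8 lid genes, 11151 over the 4 immunoproteasome genes and 2405 over the 7 assembly factors. PSMB4 was the highest beta gene, at 20431, and PSMB2 the lowest, at 3568. PSME1 and PSME2, at 15772 and 14025 with entries summed, lay above the median of the beta genes in DMSO at 24 h, and stood at 5315 and 6915 with AU-15330 at 24 h.

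The pseudogenes and the symbols outside the complex are given for shared reads. Of the 14 pseudogenes, 3 passed the filter: PSMC1P1, PSMC2P1 and PSME2P2. PSME2P2 had 240 and 248 normalised counts in DMSO and 207, 191 and 236 with AU-15330 at 8 h, and did not pass there (-0.17, SE 0.13, limma adjusted p 0.316). It had 225, 235 and 261 normalised counts in DMSO and 104, 137 and 84.8 with AU-15330 at 24 h, and fell by 0.84 (SE 0.12, limma adjusted p 0.000155), the direction of its parent PSME2. Reads of a gene and of its near copy can be split between their entries, so PSME2P2 and PSMC1P1, at 3310 ± 91.7 normalised counts (SD, n = 3) in DMSO at 24 h, are uncertain, as are PSME2 and PSMC1 to that extent. PSMC1P1 and PSMC2P1 passed neither treatment test.

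PSMC3IP, a partner of meiotic and recombination proteins with no place in the proteasome, fell by 0.76 (SE 0.08, limma adjusted p 1.74e-05) at 8 h and by 0.20 (SE 0.07, adjusted p 0.0307) at 24 h. PSME3IP1, which binds PSME3, passed at neither time. PSMA8 averaged 1.71 ± 0.23 (SD, n = 2) normalised counts in DMSO and 2.19 ± 2.24 (SD, n = 3) with AU-15330 at 8 h, below the filter. PSMB3, with 2 unequal entries, passed at neither time on the entry used or on the sum.

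Proteasome partners that lack the family prefix were taken from a list of 11 genes, of which 5 rose and none fell at 8 h and 5 rose and 2 fell at 24 h. Rises were 45.5% of the list at each time, beside 22.9% of all tested genes at 8 h and 24.7% at 24 h. Falls at 24 h were 18.2%, beside 26.2%, and 21.4% of all tested genes fell at 8 h. For falls at 8 h, none of the 11 had an unadjusted p below 0.05 by limma. AKIRIN2, which brings finished proteasomes into the nucleus, had 4140 and 4388 normalised counts in DMSO and 5153, 5236 and 5054 with AU-15330 at 8 h, and 4155, 3870 and 4101 against 6218, 6220 and 5862 at 24 h. AKIRIN2 rose by 0.27 (SE 0.05, limma adjusted p 0.000943) and by 0.59 (SE 0.04, adjusted p 6.17e-07), and the effect was larger at 24 h by 0.32 (SE 0.06, adjusted p 0.00622). USP14, a deubiquitinase of the cap, rose by 0.26 and 0.16. At 24 h UCHL5, the deubiquitinase held by the receptor ADRM1, fell by 0.28 (SE 0.04, limma adjusted p 8.36e-05), and PAAF1, a chaperone of the base, fell by 0.46 (SE 0.07, adjusted p 0.000336).

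The list of 9 genes that control constitutive proteasome transcription gave 1 rise and 5 falls at 8 h and 2 rises and 5 falls at 24 h (2 and 3 on log2(CPM + 1)). Rises were 11.1% and 22.2% of the list and falls 55.6% at each time. Of all tested genes, 22.9% rose and 21.4% fell at 8 h, and 24.7% rose and 26.2% fell at 24 h. NFE2L1, the factor that raises proteasome genes when proteasome activity is short, was named after its values were seen: it had changes of 0.04 (SE 0.07, limma adjusted p 0.695) and 0.02 (SE 0.06, adjusted p 0.862). NFE2L2, its relative of the oxidative response, rose from 4693 and 4644 to 6001, 6469 and 6444 at 8 h, a change of 0.43 (SE 0.05, limma adjusted p 8.79e-05). At 24 h NFE2L2 had 4405, 4606 and 4668 in DMSO and 5568, 6254 and 5930 with AU-15330, and rose by 0.37 (SE 0.05, adjusted p 8.66e-05). SYVN1, the ligase that turns NFE2L1 over at the endoplasmic reticulum, fell by 1.04 (SE 0.07) and 1.22 (SE 0.06), with adjusted p-values of 1.28e-06 and 5.9e-08. MAFG, a small Maf partner of both factors, fell by 0.65 (SE 0.05) and 0.18 (SE 0.05).

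Genes that deliver substrate to the proteasome came from further lists. Among 11 tested genes for shuttle factors and the VCP segregase, 5 rose and 1 fell at 8 h, and 5 rose and 2 fell at 24 h (7 and 1 on log2(CPM + 1)). Rises were 45.5% of these genes at each time, beside 22.9% of all tested genes at 8 h and 24.7% at 24 h. Falls were 9.1% and 18.2%, beside 21.4% and 26.2%. MIDN, whose product midnolin carries short-lived nuclear proteins to the proteasome, had 4912 and 5799 in DMSO and 2658, 2845 and 2634 with AU-15330 at 8 h, and 4292, 4600 and 4124 with AU-15330 against 5657, 6240 and 6066 in DMSO at 24 h. MIDN fell by 0.96 (SE 0.07, limma adjusted p 2.99e-06) at 8 h and by 0.46 (SE 0.07, adjusted p 0.00014) at 24 h. UBQLN4, a shuttle of the ubiquilin family, rose by 0.33 and 0.31. Of 6 genes for ubiquitin and its activating enzymes, UBB, which encodes a chain of ubiquitin repeats, was lower at both times (-0.30 and -0.27).

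In the list of 11 genes for the VHL ligase, which AU-15330 recruits, 2 rose and 1 fell at 8 h and 3 rose and 1 fell at 24 h. These were 18.2% and 9.1% at 8 h, beside 22.9% and 21.4% of all tested genes. At 24 h they were 27.3% and 9.1%, beside 24.7% and 26.2%, so the rises were near the shares of all genes. VHL, CUL2, ELOB, ELOC and RBX1, the parts of the ligase itself, passed at neither time and were named for that role after their values were seen. VHL had changes of 0.02 (SE 0.09) and 0.15 (SE 0.08). The genes that rose at both times were UBE2M, the NEDD8-conjugating enzyme that activates cullins (0.29 and 0.18), and CDC34, a ubiquitin-conjugating enzyme of cullin ligases (0.26 and 0.29).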

How the data were processed

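Per the submitters' processing notes, reads were handled with kallisto 0.46.1 and DESeq2 1.24.0 under R 4.3.2, beside Trimmomatic 0.40 and FastQC 0.11.9, on GRCh38.p13. Their parameters and each sample's library kit are not given in the sources used here. All deposited values are on a log2 scale: the authors' table has a floor of 10.36053 in every library, as a variance-stabilising transform of normalised counts has, and this transform was inverted. A doubling is 0.461 on the deposited scale at 1000 normalised counts and 0.852 at 10000. About 59.45 normalised counts equal 1 CPM, and the pseudocount of 60 is close to that. Of values up to 20, 53.5% to 56.0% per library lay within 0.02 of a whole number, too few to recover whole reads, so no count model was run.

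The table has 12 columns of values, 2 of them with the same name and identical values. That name belongs to DMSO at 8 h, and 1 of the 2 columns was not used, which left 11 libraries and 7 residual degrees of freedom. The planned design assumed 12 libraries.

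The fit was limma 3.58.1 (R 4.3.3) with 1 mean per group over all 4 groups, a mean-dependent variance prior and a two-sided test. It was tested on simulated data. Figures were drawn with Matplotlib 3.10.9, and tables joined with pandas 2.3.3 and NumPy 2.4.6 on Python 3.11.15. Gene coordinates and transcript lengths are from GENCODE release 29 on GRCh38 (lengths are medians over coding transcripts), and promoter windows from RefSeq on GRCh38.p14. Values per library are given for the 4 immunoproteasome genes and, in each other class, for the members with the smallest p in the 8 h, 24 h and interaction tests, and up to 4 names per further list were chosen by the smallest p. The members and lists were chosen with earlier results of these data known. Same-numbered libraries at 24 h had deviations correlated at 0.0411, 0.03 and 0.0446, and differently numbered ones at -0.0606 to 0.0195. These small values do not settle whether the numbers pair the samples, and the main fit used no pairing. Alternatives were other scalings, filters, variance priors, summed entries, a minimum difference, a replicate block and leaving out each library. Not every gene that fits the symbol pattern is reported here.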

Additional observations from a re-analysis of the deposited data

Results flagged for a closer look

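For 11 proteasome genes the log2 effect of AU-15330 at 24 h differed from that at 8 h by a limma test of the difference itself (adjusted p below 0.05). Each difference was negative, and 8 h and 24 h are also the labelled batches. In the immunoproteasome set it was -1.16 for PSME1, -0.85 for PSME2, -0.73 for PSMB10 and -0.58 for PSMB8. PSMA6 of the alpha ring had a difference of -0.45, the activator gene PSME3 one of -0.40 and the chaperone gene PSMG1 one of -0.35. In the 19S cap the differences were -0.27 for PSMD1, -0.26 for PSMD6, -0.23 for PSMD7 and -0.17 for PSMD14. Of these 4, PSMD6 alone passed with quantile normalisation and on log2(CPM + 1) and log2(CPM + 5), and PSMD14 was lost in 9 of the 11 fits that left out 1 library, as PSMB8 was in 8.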

How the results depend on the processing

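No log2 change of a single proteasome gene that had been called reversed its direction under the alternatives run. Medians near 0 did: on the deposited scale that of the 20S core for the difference between times went from -0.04 to 0.05 with quantile normalisation and 0.02 on log2(CPM + 1), and that of the beta ring with AU-15330 between times from -0.04 to 0.03 with quantile normalisation. Requiring a change of at least 0.25 reduced the proteasome genes called at 8 h to 11 higher and 2 lower, those at 24 h to 5 higher and 6 lower, the lower genes in DMSO between times to 0, and the genes between times with AU-15330 to 0 higher and 11 lower, by its construction. The lower proteasome genes in the test of the difference between times were 7 on log2(CPM + 1) and 7 on log2(CPM + 5), and the cause was not tested. In DMSO between times, 1 proteasome gene was lower with no filter, 1 with only its own groups in the fit, and 1 was higher with entries summed (PSMB8). With the replicate number as a block, 15 proteasome genes were higher and 10 lower at 24 h; each AU-15330 library at 24 h correlated best with its own number. At 8 h the block was chosen after seeing the data, took the second DMSO library as number 2, and gave 16 higher and 2 lower, and the cause was not tested; the planned block with all 8 h numbers was not run, as was none across times. Leaving out 1 library at a time gave 22 to 28 higher and 3 to 4 lower proteasome genes at 8 h, 15 to 16 and 8 to 11 at 24 h, 0 to 1 and 8 to 13 for the difference between times, 0 to 0 and 0 to 1 in DMSO between times, and 0 to 1 and 22 to 26 with AU-15330 between times. Where a fit left 1 library in the DMSO 8 h group, that library was assumed to vary like the others. Over single genes and alternatives, 51 of the 8 h tests, 31 of the 24 h tests and 37 of the tests of the difference lost a call, and 6, 25 and 10 gained one. The 2 DMSO libraries at 8 h limit the precision of every 8 h value.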
